A study of Mus musculus with 5 samples.

Results

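The core circadian clock of the mouse retina is described here through 10 genes, *Clock*, *Arntl*, *Npas2*, *Per1*, *Per2*, *Per3*, *Cry1*, *Cry2*, *Nr1d1* and *Nr1d2*, of the 33635 genes in the deposited count table. The genes were chosen by symbol for their place in the clock. All 10 were found, each with a single entry, and *Arntl* stood under its newer name *Bmal1*. RNA-Seq was performed on retinas of wild-type male C57BL6/J mice that wore a diffuser goggle over the right eye from postnatal day (P) 28 to P42, which induced form-deprivation myopia (FDM). The left eye stayed uncovered and was the control. Both groups therefore shared genotype, strain, sex, age, a light-dark cycle of 12 hours each, the anaesthesia for eye measurements and collection in the light phase. The hour of collection was not given in the sources used here. There were 2 FDM libraries (FDM 1 and FDM 3) and 3 control libraries (Control 1, Control 2 and Control 3). Mouse 1 gave FDM 1 and Control 1, mouse 3 gave FDM 3 and Control 3, and the partner eye of Control 2 was not analysed here.

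The clock is a feedback loop of transcription and translation that runs in nearly every cell type. CLOCK, or its relative NPAS2, pairs with BMAL1, the product of *Arntl*, and switches on the *Per* and *Cry* genes through E-box sequences in their promoters. The PER and CRY proteins then enter the nucleus and block that pair. In a second loop the nuclear receptors REV-ERBα and REV-ERBβ, products of *Nr1d1* and *Nr1d2*, repress *Arntl* and compete with the ROR receptors for the same sites. The retina holds its own clock, which is set by light and is tied to dopamine release and to daily rhythms of visual sensitivity. Myopia research has long asked whether daily rhythms bear on eye growth, so a clock comparison between a form-deprived eye and its partner addresses whether transcript levels of the loop differ after 2 weeks of blurred vision.

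In all, 3 members held one of the searched clock motifs in the 250 bases before an annotated start, and the windows with a match are printed. *Per1* and *Per3* are also the members whose values the comparison below turns on. A link between the motifs and that comparison was not tested. The sequences are from RefSeq on GRCm38.p6, written 5′ to 3′ along the strand of the gene and ending at the base before the start, with the motif in capitals.
Per1, chr11:69098699-69098948, plus strand: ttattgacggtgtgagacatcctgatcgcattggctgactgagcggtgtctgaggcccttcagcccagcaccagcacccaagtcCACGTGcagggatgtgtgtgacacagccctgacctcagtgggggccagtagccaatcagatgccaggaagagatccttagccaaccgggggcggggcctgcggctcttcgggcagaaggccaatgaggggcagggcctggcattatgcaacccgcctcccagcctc
Per3, chr4:151044666-151044915, minus strand: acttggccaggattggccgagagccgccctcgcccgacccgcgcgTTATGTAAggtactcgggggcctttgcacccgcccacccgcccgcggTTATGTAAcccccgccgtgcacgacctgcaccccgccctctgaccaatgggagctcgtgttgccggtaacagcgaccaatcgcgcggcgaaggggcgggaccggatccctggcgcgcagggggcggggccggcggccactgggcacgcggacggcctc
Cry1, chr10:85185055-85185304, minus strand: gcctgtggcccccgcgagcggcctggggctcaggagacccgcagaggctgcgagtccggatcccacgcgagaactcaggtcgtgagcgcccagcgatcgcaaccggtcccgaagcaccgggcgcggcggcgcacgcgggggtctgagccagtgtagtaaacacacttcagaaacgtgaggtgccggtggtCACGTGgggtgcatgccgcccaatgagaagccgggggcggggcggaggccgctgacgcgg
In *Per1* the capitals mark an E-box (CACGTG), which began 166 bases before the start. *Cry1* carried the same E-box 60 bases before its start. In *Per3* they mark 2 copies of a D-box (searched as TTANGTAA), 205 and 158 bases before the start. D-boxes are bound by the output factors DBP, TEF and HLF and by the repressor NFIL3. The printed *Per1* window lay within the annotated gene, upstream of an internal start, with 1 of its bases in an exon. The other searched window of *Per1* held none of the motifs. The *Cry1* window shared 10 bases with an exon, and the *Per3* window none. Both strands were searched in 13 windows for the 10 genes, and no match overlapped another. An E-box stood in 2 of the 13 windows (2 of the 10 genes) and in 6.02% of 32851 mouse promoters of the same length. A D-box stood in 1 of the 13 windows (1 of the 10 genes) and in 2.06% of those promoters. A cyclic AMP response element (TGACGTCA, 1.55% of promoters) and a ROR element (TAGGTCA, 2.23%) stood in none of the 13 windows, which says only that these letters were not in these short stretches.

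The 5 libraries held 40599047 to 56534931 estimated counts. All 22 markers fixed for retinal cell types (rods, cones, bipolar, amacrine, horizontal and ganglion cells and Müller glia) were detected in every library. Libraries also differed in tissue around the retina. The summed level of 8 lens markers was 1567 CPM (counts scaled to a common library size) in FDM 3 and between 2.71 and 13.9 in the other libraries. The sum of 8 markers of retinal pigment epithelium was 242 in Control 2 and 233 in Control 3, against 54.9 to 68.7 in the other 3 libraries. For 6 skeletal muscle markers it was 65.6 in Control 3 and 6.94 to 8.34 elsewhere. Refractive error at P42 was 0.98 dioptres (D) in FDM 1 against 2.45 in its partner eye, and 0.27 in FDM 3 against 2.46 in its partner, while Control 2 stood at 3.15. The refraction of the form-deprived eye relative to its partner was thus -1.47 D in mouse 1 and -2.19 D in mouse 3.

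No core clock gene passed the unadjusted threshold of 0.05 between FDM and control eyes when edgeR compared the eyes as groups, and *Per1* and *Per3* passed it when they were paired by mouse with a block, as did 7.23% of all genes. As groups the count was 0 of 10 in edgeR's quasi-likelihood test, against 1.61% of the 17432 genes tested, and after Benjamini-Hochberg adjustment no gene of the whole table passed in this fit, with an adjusted p of 1.0 for each of the 10. DESeq2 also called 0 of the 10, with a background of 0.987%, and 3 genes of the table passed after adjustment, none of them a member. With limma, run on the log2-transformed counts that the authors had normalized, 1 was added to each count and the test called 1 of the 10, *Per1* (background 1.72%). All 10 had more than 10 counts in every library, so none entered the test through one group alone. The estimated differences were small. Every 95% interval lay within 1.5-fold in either direction, from a lowest bound of 0.690-fold for *Nr1d2* to a highest of 1.44-fold for *Nr1d1*. The median size of the log2 fold change was 0.07 for the members and 0.07 for all genes tested, and the median with its sign was -0.04 and -0.01. In direction, 7 members were estimated lower and 3 higher in FDM eyes, while 55.6% of all genes were estimated lower. Without Control 2 the split was 3 lower and 7 higher, and in the paired fit it was 4 and 6. The libraries are bulk tissue, in which fewer cells of a type and less RNA per cell cannot be told apart. Eyes of one mouse are not independent, so p-values over eyes measure the spread among these 5 libraries.

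**Figure D1:**
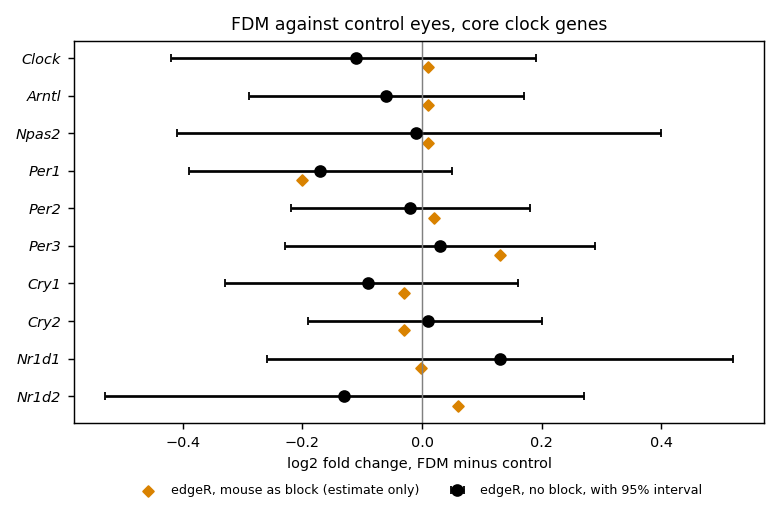
Log2 fold change of each core clock gene, FDM minus control, with black points for edgeR without a block and bars for the 95% interval (2 FDM and 3 control libraries). Orange diamonds give the estimate with the mouse as a block. All 10 bars cross 0, the lowest black point is *Per1* at -0.17, and the diamond of *Per3* lies at 0.13.

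The activators came first in the loop and showed no separation of the groups. *Clock* (chr5:76209868-76304792), which encodes a DNA-binding partner of BMAL1, was at 73.2 CPM in FDM 1 and 75.4 in FDM 3, and at 69.8, 93.6 and 77.7 in Control 1, 2 and 3. Both FDM values fell inside the range of the controls, which was set by the high Control 2. The means were 74.3 ± 1.56 CPM (SD, n = 2) in FDM and 80.4 ± 12.1 (SD, n = 3) in control eyes, and the edgeR log2 fold change was -0.11 (SE 0.13, 95% interval -0.42 to 0.19, unadjusted p = 0.405). *Arntl* (chr7:113207465-113314126), the one clock gene whose loss alone stops behavioural rhythms in mice, was at 91 and 96.3 CPM in FDM and at 90.5, 107 and 95.8 in control eyes. Here too Control 2 was the highest library and the groups overlapped. Its log2 fold change was -0.06 (SE 0.10, interval -0.29 to 0.17, edgeR unadjusted p = 0.544). *Npas2* (chr1:39193731-39363236), which can stand in for CLOCK, was scarce, with 129 to 182 counts per library. It was at 3.28 and 3.06 CPM in FDM and at 3.63, 3.19 and 2.72 in control eyes, so the groups overlapped, and its log2 fold change was -0.01 (SE 0.17, interval -0.41 to 0.40, edgeR unadjusted p = 0.977).

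*Per1* was the only member whose groups did not overlap. *Per1* (chr11:69095217-69109960) encodes a repressor of the loop and is also a light-responsive gene of the central clock. It was at 147 CPM in FDM 1 and 158 in FDM 3, and at 164, 164 and 185 in Control 1, 2 and 3, so that both form-deprived eyes lay below all 3 control eyes. Such separation in either direction was seen in 10.6% of all genes tested and in 1 of the 10 members. The means were 152 ± 7.30 CPM (SD, n = 2) and 171 ± 12.1 (SD, n = 3), a ratio of 0.890 with a 95% interval of 0.765 to 1.03. The edgeR p was 0.110 (log2 fold change -0.17, SE 0.09) and the adjusted p 1.0. By limma the unadjusted p was 0.0410, and with the authors' factor for each gene and library as offsets in edgeR it was 0.0476, where 1 of the 10 members and 2.00% of genes passed. An offset for GC content in edgeR gave an unadjusted p = 0.0688 (0 of 10 members, background 1.85%). Control 3 was the highest library for *Per1* and the one with muscle transcripts. Without it the log2 fold change was -0.10 (edgeR unadjusted p = 0.316), and without FDM 3, the library with lens transcripts, it was -0.22 (edgeR unadjusted p = 0.187). In the fit paired by mouse it was -0.20 (edgeR unadjusted p = 0.00522, adjusted p = 0.471). Control 2 and Control 3 also held more pigment epithelium markers than the other libraries. The part of these tissues in the *Per1* values was not tested.

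The groups overlapped for the other period genes. *Per2* (chr1:91415982-91459324), which encodes the repressor altered in some inherited human sleep phase disorders, was at 42.1 and 44.4 CPM in FDM and at 43.8, 46.1 and 41.6 in control eyes. Its log2 fold change of -0.02 had the narrow interval of -0.22 to 0.18 (SE 0.08, edgeR unadjusted p = 0.827). *Per3* (chr4:151003652-151044665), whose product is the least needed of the 3 for a running clock, was at 137 and 139 CPM in FDM eyes. The controls were at 125, 154 and 127, so that FDM lay above Control 1 and Control 3 and below Control 2. The log2 fold change was 0.03 (SE 0.11, interval -0.23 to 0.29, edgeR unadjusted p = 0.792). Paired by mouse, the log2 fold change was 0.13 (edgeR unadjusted p = 0.0361, adjusted p = 0.666).

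Both cryptochromes, the stronger repressors of CLOCK and BMAL1, gave overlapping groups. *Cry1* (chr10:85131700-85185064) was at 51.3 and 57.0 CPM in FDM and at 51.8, 62.0 and 58.4 in control eyes (log2 fold change -0.09, SE 0.10, interval -0.33 to 0.16, edgeR unadjusted p = 0.440). *Cry2* (chr2:92403646-92434043) was the steadiest member. It was at 160 and 160 CPM in FDM and at 167, 151 and 158 in control eyes, with a log2 fold change of 0.01 (SE 0.08, interval -0.19 to 0.20, edgeR unadjusted p = 0.929).

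The REV-ERB genes differed most among the control eyes. *Nr1d1* (chr11:98767932-98775333) was at 315 and 282 CPM in FDM and at 330, 217 and 270 in control eyes. *Nr1d2* (chr14:18204054-18239127) was at 148 and 152 CPM in FDM and at 134, 205 and 155 in control eyes. For both genes the FDM values lay within the control range, and Control 1 and Control 2 marked its 2 ends in opposite order. The log2 fold change was 0.13 for *Nr1d1* (SE 0.17, interval -0.26 to 0.52, edgeR unadjusted p = 0.452) and -0.13 for *Nr1d2* (SE 0.17, interval -0.53 to 0.27, edgeR unadjusted p = 0.455).

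**Figure D2:**
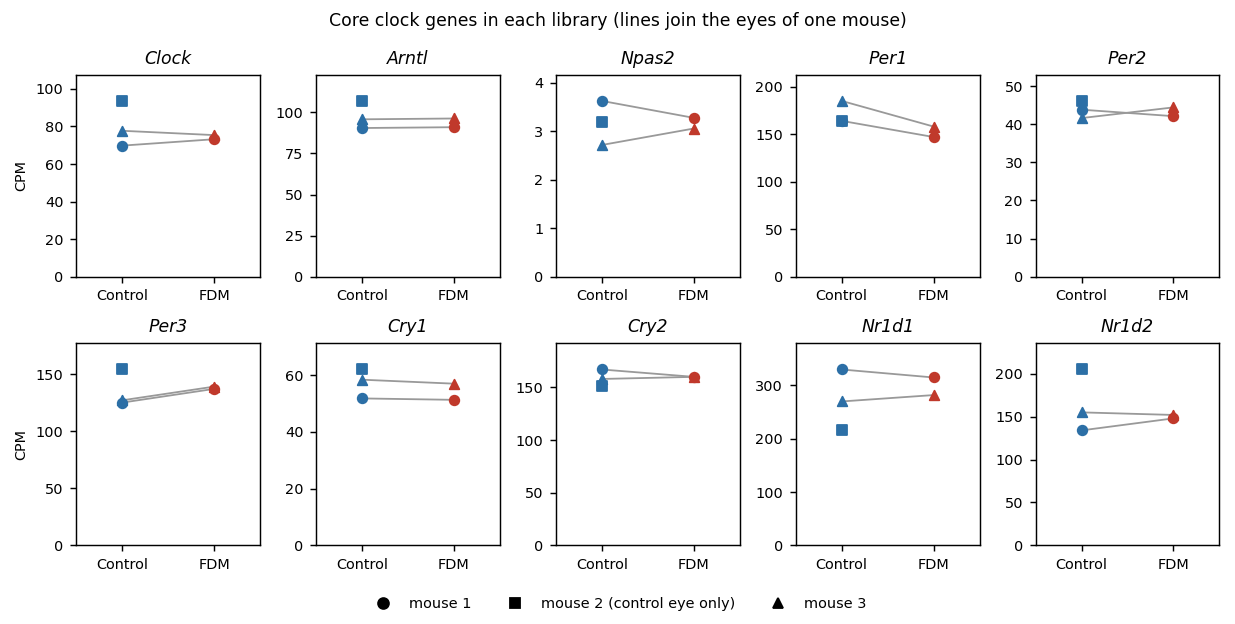
CPM of each core clock gene (vertical axes, starting at 0) in the 3 control (blue) and 2 FDM (red) libraries, with a symbol per mouse and a line joining the eyes of one mouse. *Per1* is the only panel in which both red points lie below all blue points. The square of Control 2 is the highest blue point for *Clock*, *Arntl*, *Per2*, *Per3*, *Cry1* and *Nr1d2* and the lowest for *Cry2* and *Nr1d1*.

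The comparison within mice removes what the eyes of one animal share, including the time of death, which matters for transcripts that change through the day. Each difference is the log2 ratio of the covered to the uncovered eye, with 1 library on each side. *Per1* was lower in the covered eye of both mice, by -0.16 in mouse 1 and -0.23 in mouse 3. *Per3* was higher in the covered eye of both, by 0.13 and 0.13. *Arntl* (0.01 and 0.01) and *Cry1* (-0.02 and -0.04) also kept one sign, with differences close to 0. The remaining 6 genes changed sign between the mice, from -0.15 and 0.17 for *Npas2* to -0.07 and 0.02 for *Cry2*. In all, 4 of 10 members lay on the same side in both mice, against 55.0% of all genes. Between the eyes of one mouse *Nr1d1* differed by -0.06 and 0.06, and *Nr1d2* by 0.14 and -0.03. Across mice the differences of *Nr1d1* were 0.54 (FDM 1 minus Control 2), 0.22 (FDM 1 minus Control 3), -0.23 (FDM 3 minus Control 1) and 0.37 (FDM 3 minus Control 2). For *Nr1d2* they were -0.47, -0.07, 0.19 and -0.43 in the same order, so FDM 1 lay closer to Control 3 than to its own partner.

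When edgeR was given the mouse as a block, 2 of the 10 members passed the unadjusted threshold, where 7.23% of all genes did. *Per1* was lower in the covered eye and *Per3* was higher, each with an SE of 0.05. After Benjamini-Hochberg adjustment 54 genes of the table passed in this fit, neither of these among them. With a GC offset added to the block the same members passed, at -0.16 for *Per1* (unadjusted p = 0.0134, adjusted p = 0.525) and 0.17 for *Per3* (unadjusted p = 0.00569, adjusted p = 0.431), against 7.71% of genes. This fit uses only the 4 paired libraries and leaves 1 residual degree of freedom. The spread it rests on was thus estimated almost wholly by sharing information across genes. The eyes of mouse 3 also differed in lens, pigment epithelium and muscle markers, whose part in these calls was not tested. Both calls also depend on the pairing, since FDM 3 bears the number 2 in its title. When it was paired with Control 2 by that number, neither gene passed. *Per1* was then at -0.11 (edgeR unadjusted p = 0.416) and *Per3* at -0.005 (edgeR unadjusted p = 0.972).

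**Figure D3:**
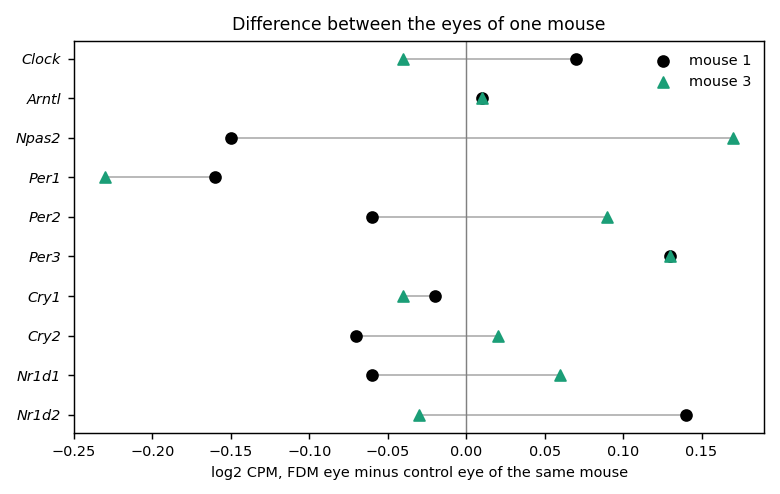
Log2 CPM of the FDM eye minus the control eye of the same mouse for each core clock gene, with circles for mouse 1 and triangles for mouse 3, 1 library per eye. *Per1* lies left of 0 in both mice (-0.16 and -0.23), *Per3* right of 0 in both (0.13 and 0.13), and 6 genes have a symbol on each side.

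Covered eyes were not always closest to their own partner in the clock genes. FDM 1 was nearest to Control 1, of the 3 control libraries, for 5 of 10 members, where 42.7% of all genes were. FDM 3 was nearest to Control 3 for 7 of 10, with a background of 42.6%. *Clock*, *Arntl*, *Cry1* and *Nr1d1* were nearest to their own partner in both mice.

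Per length of exon, the REV-ERB gene *Nr1d1* was the most abundant clock transcript in these retinas and *Npas2* the least. All retinas were collected in the light phase, so the order belongs to that part of the day. The course of these transcripts through the day was not measured. On the scale of CPM per kilobase of exon over all 5 libraries, *Nr1d1* had a level of 91.9 ± 14.3 (SD, n = 5), and its lowest library, at 70.7, lay above the highest library of any other member. *Nr1d2* followed at 29.4 ± 5.04, *Per1* at 29.1 ± 2.47 and *Cry2* at 25.2 ± 0.916, and the ranges of these 3 genes overlapped. *Cry1* (16.8 ± 1.35), *Per3* (14.2 ± 1.19) and *Arntl* (12.8 ± 0.882) formed a lower tier, in which neighbours overlapped. *Per2* was at 7.44 ± 0.310 and *Clock* at 5.68 ± 0.672. *Npas2*, at 0.663 ± 0.0695, lay below every library of every other member, and its level was far under that of *Clock*, whose role it can take. The middle of this order depends on the length used. Per kilobase of the longest transcript, *Cry2* (40.0) came before *Per1* (35.1) and *Nr1d2* (34.1), and *Clock* (8.0) before *Per2* (7.47). The lower tier turned round, to *Arntl* (24.1), *Per3* (22.7) and *Cry1* (18.5), while *Nr1d1* stayed the highest and *Npas2* the lowest.

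**Figure D4:**
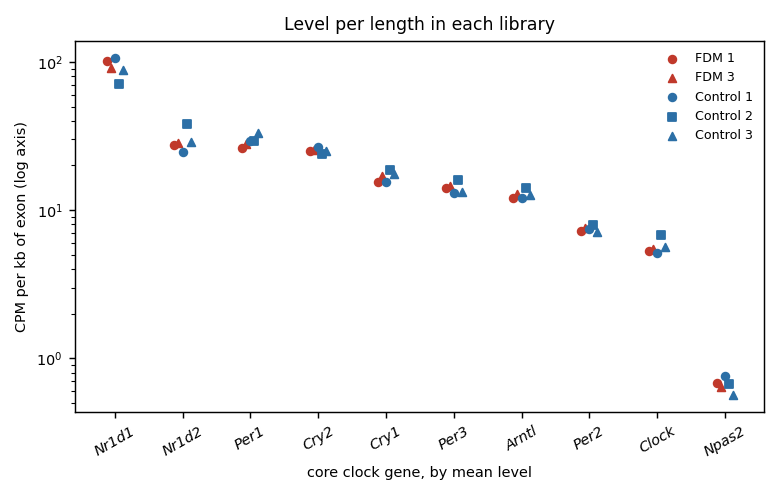
Level of each core clock gene in CPM per kilobase of exon (log axis), with genes ordered by their mean over 5 libraries, FDM in red and control in blue, and 1 symbol per mouse. *Nr1d1* (mean 91.9) stands apart at the top and *Npas2* (mean 0.663) at the bottom, and in each gene the red points lie among or near the blue ones.

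Several members differed among the control libraries, with 1 library per mouse, so mouse and library cannot be told apart. The standard deviation of log2 CPM over the 5 libraries was 0.23 for both *Nr1d1* and *Nr1d2*, 0.16 for *Clock* and 0.15 for *Npas2*. For the other 6 members it was 0.05 to 0.12, and the median of the 14815 genes with a mean of at least 1 CPM was 0.12. Before rounding, 7 of the 10 members lay above that median, with *Per1*, *Per3* and *Cry1* among them only just, at a rounded 0.12. Among the control libraries alone the standard deviation was 0.30 for *Nr1d1*, 0.31 for *Nr1d2* and 0.21 for both *Clock* and *Npas2*. The same value over all genes was not computed. Between Control 2 and Control 1 the log2 difference was -0.60 for *Nr1d1*, 0.62 for *Nr1d2*, 0.42 for *Clock* and 0.30 for *Per3*. The differences of *Per1* (0.002) and *Per2* (0.07) were the closest to 0. These libraries also differed by base composition across the whole transcriptome. Among all genes with under 45% GC, Control 2 was above the gene mean by a median log2 of 0.18 and Control 1 below it at -0.10, and among those over 55% GC the medians were -0.14 and 0.09. *Clock* (41.5% GC) and *Nr1d2* (44.0%) belong to the first class, *Nr1d1* (56.6%) and *Per1* (58.9%) to the last. Over the 10 members, the correlation of GC content with the difference between these 2 libraries was -0.78, a description of points that share the same pair of libraries. After subtraction of the median shift of genes of like GC content, the difference between Control 2 and Control 1 was -0.40 for *Nr1d1*, 0.34 for *Nr1d2* and 0.11 for *Clock*. It became larger for *Per1* (0.26), *Per2* (0.23) and *Per3* (0.40) and slightly larger for *Cry1* (0.26 before and 0.28 after). In the remaining members it became smaller in size. In FDM 1, from the same mouse as Control 1, the medians under 45% and over 55% GC were -0.03 and 0.02. They were -0.02 and 0.01 in FDM 3, and -0.03 and 0.02 in Control 3. For Control 2, mouse, tissue around the retina, base composition and the hour of collection cannot be told apart, since its partner eye was not analysed. The source of the differences in Control 1 was not tested.

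**Figure D5:**
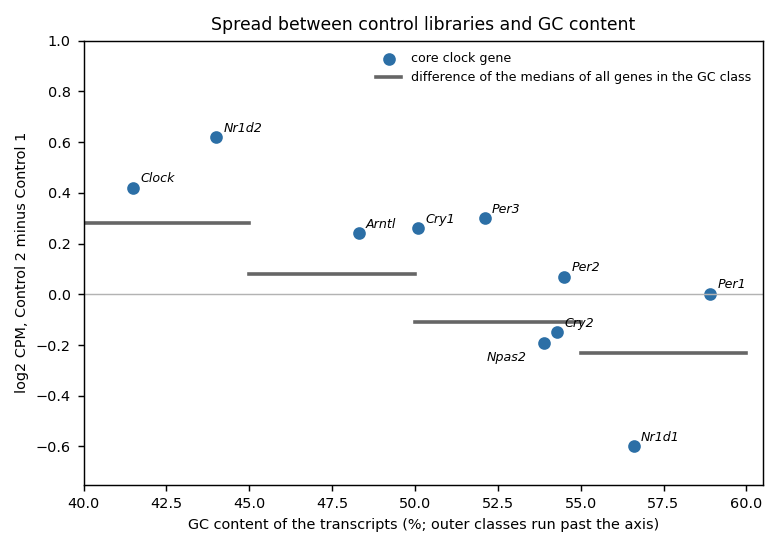
Log2 CPM of Control 2 minus Control 1 for each core clock gene (points) against the GC content of its transcripts in percent, with grey bars for the difference of the medians of all genes in 4 GC classes. Genes with low GC content such as *Nr1d2* (0.62) lie high and *Nr1d1* (-0.60) lies low, as the grey bars fall from left to right, while *Per1* lies at 0.002.

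None of the wider clock genes passed the threshold either. Of 26 further clock genes (ROR receptors, E-box repressors, kinases, ubiquitin ligase subunits, cofactors, energy sensors and output factors), all were tested and 0 passed the unadjusted threshold in edgeR, against 1.61% of all genes. The count was also 0 with DESeq2, limma and the block. Their log2 fold changes ran from -0.20 for *Prkaa2*, a catalytic subunit of the energy sensor AMPK, to 0.14 for *Rorb*. *Rorb*, a receptor of the second loop that is also needed for photoreceptor development, was at 356 and 302 CPM in FDM and at 340, 266 and 286 in control eyes (edgeR unadjusted p = 0.294). *Dbp*, a D-box activator driven directly by CLOCK and BMAL1, was at 170 and 166 CPM in FDM and at 187, 147 and 176 in control eyes (log2 fold change -0.01, edgeR unadjusted p = 0.908). *Nfil3*, its counterpart repressor, was at 15.1 and 17.5 against 17.5, 16.0 and 18.1 (log2 fold change -0.08, edgeR unadjusted p = 0.509). In all 3 genes the groups overlapped. *Csnk1d*, the kinase that phosphorylates PER proteins, had a log2 fold change of 0.004 (edgeR unadjusted p = 0.959). The groups did not overlap for 3 of the 26 genes, where 10.6% of all genes did so. The E-box repressor *Ciart* and the cofactor *Nono* were lower in both FDM libraries, and *Btrc*, a ligase subunit for PER proteins, was higher. The gaps were small. *Nono* was at 216 and 212 CPM in FDM and at 216, 216 and 220 in control eyes (edgeR unadjusted p = 0.763). *Btrc* was at 199 and 194 against 192, 191 and 181 (edgeR unadjusted p = 0.443). *Ciart* had the smallest p of the list, 0.207 in edgeR, with 25 and 25.4 CPM in FDM and 26.9, 26.4 and 28.2 in control eyes. *Ciart*, *Nono*, *Btrc* and *Prkaa2* were named after their values were seen.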

How the data were processed

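Poly-A RNA of 5 retinas was sequenced, and groups follow the sample labels. Pairing comes from the study's mouse numbers, since the eyes of one mouse are the same animal. The second FDM library is numbered 3 in the table and the supplement, and 2 in its title. Deviations of paired libraries from their group means correlated at 0.23 (mouse 1) and 0.09 (mouse 3), and at 0.15 when FDM 3 was set against Control 2. With only 2 FDM libraries their deviations mirror each other. These correlations are thus tied together and do not check each pair on its own.

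The authors trimmed reads with Trimmomatic 0.39, quantified transcripts with Salmon 1.10.1 and deposited estimated counts per gene as whole numbers, here on GRCm38. The authors also deposited a signal of DESeq2-normalized counts (R 4.3.1), whose ratio to the counts varied between genes, and left out 1 FDM library for its share of duplicates. Estimated counts split between transcripts by a model carry an error that these values do not show. Of 33636 entries, 1 with a repeated identifier was left out, and 0 columns belonged to other samples.

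The 17432 genes that exceeded 10 counts in 2 or more libraries entered edgeR 4.0.16 under R 4.3.3 (TMM factors of 0.98 to 1.01, quasi-likelihood test, no covariate), at the study's unadjusted threshold of 0.05, with Benjamini-Hochberg adjustment over all genes tested. Log2 CPM used a prior count of 0.5. Alternatives were other scalings and filters, DESeq2 1.42.0, limma 3.58.1 (normalized counts, log2 after adding 1 or 0.1), a block for mouse, and removal of each library. The log2 ratios of single eye pairs had no test, and the paired test was the fit with the block. The scripts were tested on simulated data. Depth leaves 3 counts worth 0.0531 to 0.0739 CPM. Coordinates and exon lengths are from GENCODE M21, in which 33585 identifiers were found.

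All 10 members were named, and of 26 further clock genes those past the threshold and a preset group, of which *Dbp*, *Nfil3*, *Rorb* and *Csnk1d* are given and the remaining gene is not reported here. The 3 genes most like the most variable member were also named. The members and lists were chosen with earlier results of these data known.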

Additional observations from a re-analysis of the deposited data

How the results depend on the processing

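After adjustment, 0 members passed in any analysis run. Of the 170 member values under alternatives, 131 kept direction and side of the unadjusted threshold, 7 newly passed it and 32 changed sign. With the mouse as replicate block, the members past it went from 0 to 2, and all genes from 281 to 1261. *Clock* and *Arntl* then stood at 0.01, *Npas2* at 0.01, *Per2* at 0.02, *Cry2* at -0.03, *Nr1d1* at -0.002 and *Nr1d2* at 0.06 (log2). With the block and a GC offset, 2 members and 1343 genes passed, and the values were 0.001 for *Arntl*, 0.05 for *Npas2*, 0.05 for *Per2* and 0.02 for *Nr1d2*. Pairing by title numbers instead gave 439 genes and 0 members, with -0.11 for *Per1* (edgeR unadjusted p = 0.416) and -0.005 for *Per3*. The pairing changed no other call among the clock genes. Without the count filter 498 genes passed, with DESeq2 172, and 1 member with limma (either pseudocount) and with the authors' factors as offsets. *Npas2* was at 0.002 with DESeq2's factors, 0.01 with totals only, 0.003 in DESeq2, and 0.04 in limma and with the offsets, where *Cry2* was at -0.01. The cause of these shifts was not tested.

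Leaving out each library in turn gave 146 (without Control 3) to 946 genes (without Control 1), with 170 without FDM 1 and 535 without Control 2, and 0 members each time. Ranges were -0.20 to 0.02 for *Clock*, -0.11 to 0.02 for *Arntl*, -0.10 to 0.10 for *Npas2*, -0.22 to -0.10 for *Per1*, -0.06 to 0.03 for *Per2*, -0.02 to 0.14 for *Per3*, -0.16 to -0.01 for *Cry1*, -0.02 to 0.05 for *Cry2*, 0.004 to 0.29 for *Nr1d1* and -0.26 to 0.07 for *Nr1d2*. The upper ends for *Clock*, *Arntl*, *Per2*, *Per3* and *Nr1d2*, and the lower ends for *Cry2* and *Nr1d1*, came without Control 2. Where 1 FDM library was left, it was assumed to vary like the controls. The offsets for GC content and for the authors' factors were chosen after seeing the data. With 2 FDM libraries the member intervals without the block reached 0.690 to 1.44-fold.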

Other observations

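The spread of *Nr1d1* and *Nr1d2* was alike at 0.23 (SD of log2 CPM), and *Nr1d1*, the larger before rounding, was matched across the 5 libraries by genes outside the clock list. Of 14815 genes, the 3 closest in centred log2 CPM were *Frmpd1*, *Ltbp4* and *Slc7a3*, with root mean square differences of 0.009, 0.014 and 0.016. *Frmpd1* was at 301 and 268 CPM in FDM and at 318, 209 and 262 in control eyes, with Control 1 high and Control 2 low as in *Nr1d1*. The GC content of the 3 was 55.9%, 62.2% and 48.8%. The likeness is over 5 libraries and was picked from many genes.

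Rod transcripts varied between the control libraries as well. The summed level of 5 rod markers was 58107 CPM in FDM 1, 53548 in FDM 3, and 61533, 48701 and 58270 in Control 1, 2 and 3. Control 1 was thus the highest and Control 2 the lowest for rod markers and for *Nr1d1* alike, and a part of cell makeup in the *Nr1d1* values was not tested.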
